A study of Rattus norvegicus with 6 samples.

Results

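The liver transcripts of 9 genes of the type I interferon response, namely Stat2, Irf9, Irf7, Isg15, Usp18, Rsad2, Ifit1, Ifit2 and Ifit3, were compared between animals fed a high-fat diet alone and animals fed that diet with a herbal granule. The members were the rows of the authors' gene table whose gene name equalled one of these symbols. Each symbol stood on a single row, so 9 of the 32930 genes listed were taken, and all 9 were among the 18455 genes with enough counts to be tested.

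The series holds 6 liver libraries, sequenced from the poly(A) RNA of whole tissue, with 3 in each group. Animals of the HFD group ate a high-fat diet for 12 weeks and received the vehicle 0.5% CMC-Na. Animals of the HTG group ate the same high-fat diet for 12 weeks and received HTG, the Huazhuo Tiaozhi granule. The labels list no vehicle for the HTG group. In the study's rat experiment, drugs were given in 0.5% CMC-Na and started after the high-fat diet had begun. The sources used here do not agree on the animals: the labels name rats, the methods of the study name C57BL/6 J mice, and the rows of the table are mouse Ensembl genes, which were read as such. The treatment field of the HTG libraries spells the agent HCG, while their titles and the series text give HTG; the titles set the groups. The labels give no age and no group without the high-fat diet, so every value compares animals on that diet.

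Type I interferons are secreted proteins that bind the receptor IFNAR1/IFNAR2 and act through the kinases JAK1 and TYK2. These phosphorylate STAT2, which joins IRF9 in the complex ISGF3. ISGF3 enters the nucleus, binds interferon-stimulated response elements and switches on a large set of interferon-stimulated genes, many of which encode antiviral proteins. In the liver both hepatocytes and resident immune cells can respond to interferon.

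The DNA elements bound by ISGF3 and by the IRF factors contain repeats of GAAA, and a match is shown here for the members whose promoter window held one. The only promoter table at hand was RefSeq's for the rat assembly GRCr8, the species of the labels, whereas the measured rows are mouse genes. Of the 9 members, 5 matched it by symbol (Stat2, Irf9, Irf7, Ifit3 and Rsad2). Windows from 250 bases before to 50 bases after the gene start were searched on both strands for 2 copies of GAAA with any 2 bases between them, a motif found in 3 of the 5 windows and in 1312 of 33469 promoters overall (3.92%). Each window was counted once, whatever the number of matches. In the stretches printed 5′ to 3′ along the gene's strand, the capitals mark the match, which lies on the opposite strand and so reads as TTTC, 2 bases and TTTC. They are Irf7 at chr1:205800073-205800102 (minus strand), Ifit3 at chr1:241527272-241527301 (plus strand) and Rsad2 at chr6:48788248-48788277 (minus strand).
Irf7: acagtttaggTTTCATTTTCccgagacgca
Ifit3: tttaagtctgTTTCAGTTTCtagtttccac
Rsad2: ctggttcaacTTTCATTTTCagaaaacaga
The match began 69 bases before the gene start in Irf7, 44 in Ifit3 and 147 in Rsad2. The Stat2 and Irf9 windows did not hold these letters. A match is a description of the sequence and not a measured binding site.

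The members did not move as a block between the groups. Stat2, Isg15 and Irf9 had higher levels in the HTG libraries, Usp18 and Rsad2 had lower levels, and the levels of Irf7, Ifit1, Ifit2 and Ifit3 overlapped. At an unadjusted p under 0.05 (edgeR's quasi-likelihood test), 3 members were higher and 2 were lower, which is 5 of 9, or 55.6%. The same threshold was met by 24.7% of all genes tested, 12.3% higher and 12.4% lower. No member had an adjusted p under 0.05 in edgeR (Benjamini-Hochberg over all genes tested), and only 0.0108% of all genes did; DESeq2 put 3 members, Stat2, Isg15 and Usp18, under that threshold, against 13.4% of all genes. Stat2 and Isg15 also had an absolute log2 fold change over 1, as 8.85% of all genes did with an unadjusted p under 0.05. The groups did not overlap in 5 members (55.6%), against 32.1% of all genes tested. The median log2 fold change of the members, HTG over HFD, was 0.09, beside 0.03 over all genes tested. The median is taken over members in opposite directions, and it was -0.12 without HFD library 2 and 0.24 without HFD library 1.

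**Figure D1:**
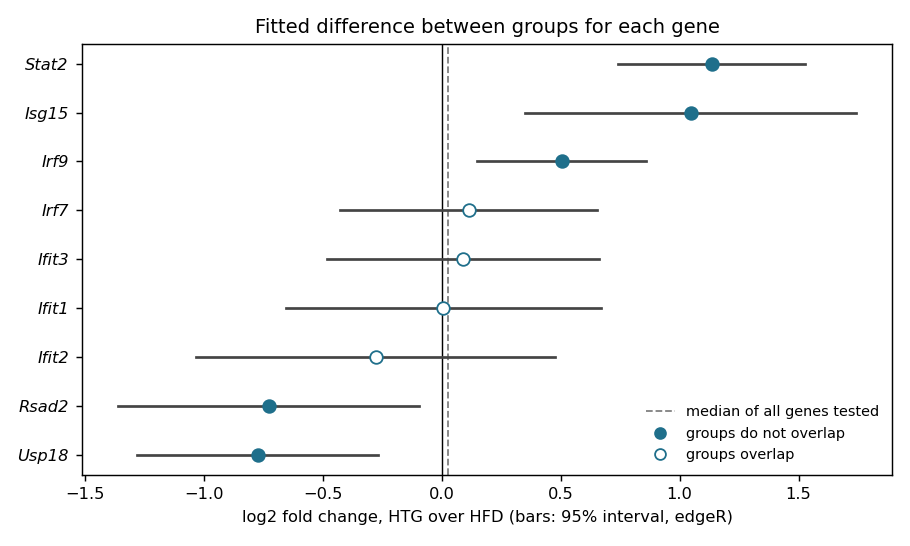
Log2 fold change of each of the 9 genes (points; filled where the groups' libraries do not overlap, open where they do), HTG over HFD, with its 95% interval from edgeR (bars). Stat2, Isg15 and Irf9 lie above 0 and Usp18 and Rsad2 below it, while the intervals of Irf7, Ifit1, Ifit2 and Ifit3 include 0; the dashed line is the median of all genes tested, 0.03.

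Stat2 and Irf9, which encode ISGF3 factors, stood higher in the HTG libraries, and Stat2 had the largest log2 fold change of the 9 members. Stat2 (ENSMUSG00000040033, chromosome 10, 128106428 to 128128718) encodes the STAT partner that type I interferon signalling requires. It was measured at 73.7, 61.9 and 75.2 CPM (counts scaled to a common library size) in HFD libraries 1, 2 and 3, and at 156, 148 and 160 CPM in HTG libraries 1, 2 and 3. The lowest HTG library was well above the highest HFD library. In whole liver, a different share of a cell type and a different RNA level per cell cannot be told apart. The group means were 70.3 ± 7.30 and 154 ± 6.25 CPM (SD, n = 3 per group). This gave 1.14 as the log2 fold change (standard error 0.17, 95% interval 0.74 to 1.53, 2.20-fold). Its adjusted p was 0.0538 in edgeR's quasi-likelihood test, close above the threshold of 0.05, and it ranged from 6.58e-07 to 0.188 over the alternative fits.

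Irf9 (ENSMUSG00000002325, chromosome 14, 55841028 to 55847487) encodes the subunit that gives ISGF3 its DNA specificity. Its level was 37.9, 31.8 and 31.3 CPM across the HFD group's libraries and 47.2, 48.7 and 47.4 CPM across those of the HTG group. The HTG libraries lay close together, and the HFD libraries all lay below them. The means were 33.7 ± 3.66 and 47.8 ± 0.839 CPM (SD, n = 3 per group). This gave 0.50 as the log2 fold change (standard error 0.16, 95% interval 0.15 to 0.86, adjusted p = 0.101 in edgeR). Irf9 shares 123 bases with Rnf31 on the same strand, and how fragments in that stretch were assigned is not stated.

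A ratio of the FPKM values, which are scaled for transcript length, sets both factors side by side within each library. The FPKM of Stat2 was 1.77, 1.77 and 2.19 times that of Irf9 across the HFD group's libraries and 3.004, 2.75 and 3.07 times across those of the HTG group. The groups did not overlap in this ratio, which was chosen after the values were seen and carries no test.

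**Figure D2:**
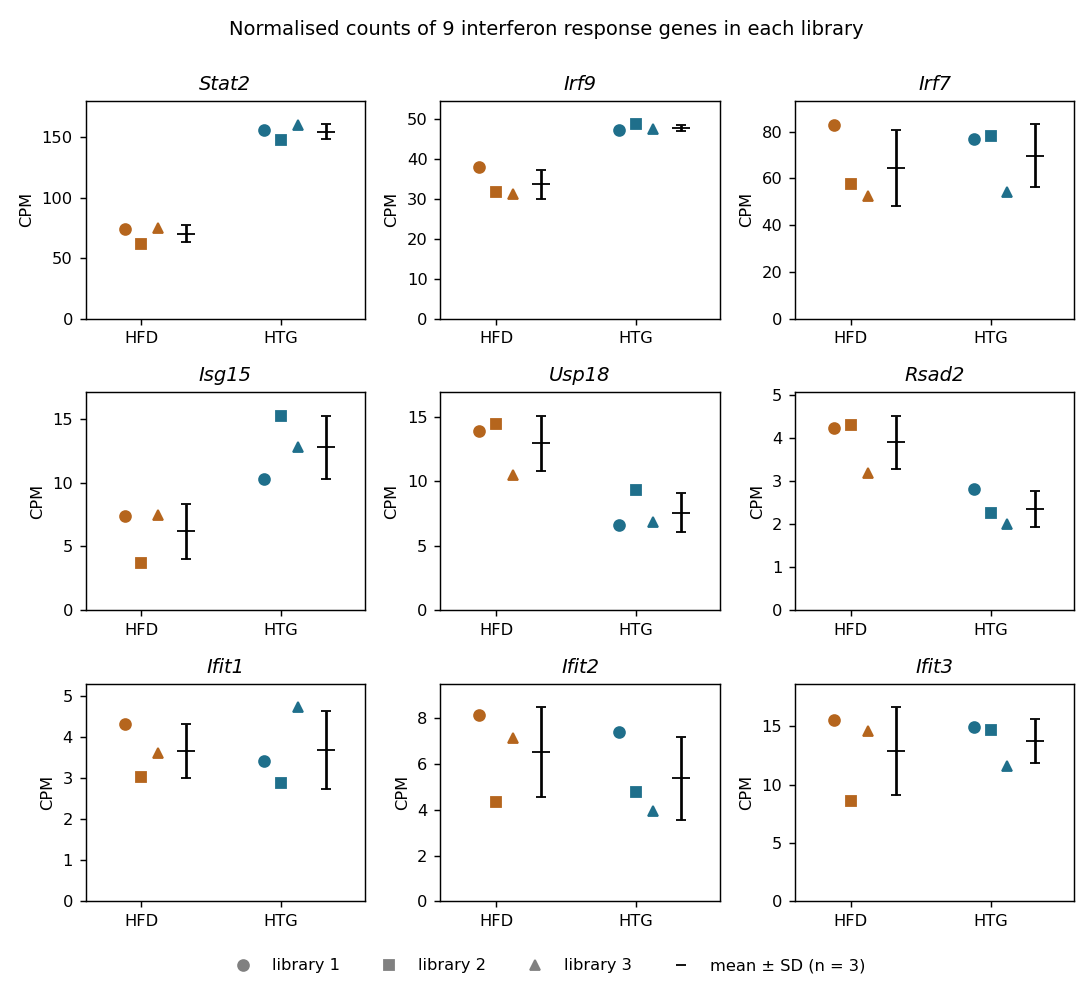
CPM of the 9 genes in each of the 6 libraries (points; circle, square and triangle are libraries 1, 2 and 3 of a group), with the mean and SD of each group (n = 3) beside them; each vertical axis starts at 0. Stat2, Irf9, Isg15, Usp18 and Rsad2 have groups that do not overlap, whereas Irf7, Ifit1, Ifit2 and Ifit3 have groups that do.

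IRF7 drives transcription of the interferon genes themselves and is induced in turn by interferon. Irf7 (ENSMUSG00000025498, chromosome 7, 140842619 to 140846394) had 83.1, 57.7 and 52.6 CPM across the HFD group's libraries and 76.9, 78.2 and 54.1 CPM across those of the HTG group. HFD library 1 was above every HTG library, and HTG library 3 was below HFD library 2. The log2 fold change was 0.11 (standard error 0.24, 95% interval -0.43 to 0.65, adjusted p = 0.801 in edgeR). That interval leaves room for a difference in either direction, and the sign turned without HFD library 3 (-0.017) and without HTG library 1 (-0.006). Irf7 overlaps Phrf1 on the opposite strand by 45 bases.

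Isg15 and Usp18, which encode a ubiquitin-like modifier and the protease that removes it, differed in opposite directions. USP18 also blocks signalling at the receptor subunit IFNAR2, so it is a brake on the pathway as well as one of its products. Isg15 (ENSMUSG00000035692, chromosome 4, 156283912 to 156285253) had 7.43, 3.70 and 7.45 CPM across the HFD group's libraries and 10.3, 15.3 and 12.8 CPM across those of the HTG group. The means were 6.19 ± 2.16 and 12.8 ± 2.51 CPM (SD, n = 3 per group), with HFD library 2 lowest of all. The log2 fold change was 1.05 (standard error 0.30, 95% interval 0.35 to 1.74, adjusted p = 0.091 in edgeR), and it was 0.78 without HFD library 2.

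Usp18 (ENSMUSG00000030107, chromosome 6, 121222865 to 121247876) had 13.9, 14.5 and 10.5 CPM across the HFD group's libraries and 6.60, 9.28 and 6.83 CPM across those of the HTG group. All HTG libraries lay below all HFD libraries, the nearest pair being HFD library 3 and HTG library 2. The means were 13.0 ± 2.14 and 7.57 ± 1.49 CPM (SD, n = 3 per group), 1.71-fold lower in the HTG group. The log2 fold change was -0.78 (standard error 0.22, 95% interval -1.28 to -0.27, adjusted p = 0.0891 in edgeR). An antisense gene, Gm44148, shares 15744 bases of the span of Usp18 and held 0 to 10 counts in the 6 libraries.

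Within each library, the FPKM of Isg15 was 2.12, 1.02 and 2.82 times that of Usp18 in the HFD libraries and 6.19, 6.54 and 7.48 times in the HTG libraries. HFD library 2 stood near equal levels, and no HTG library came below 6. The ratio rests on a pair chosen after the values were seen, so it has no test.

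**Figure D3:**
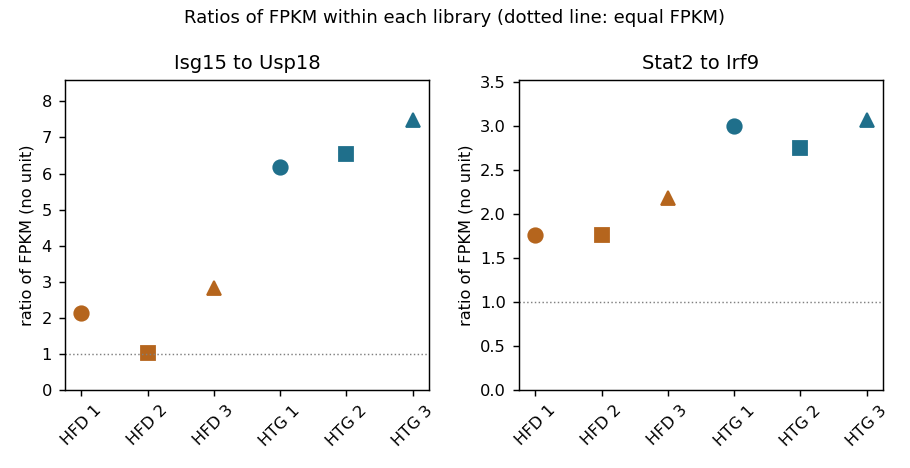
Ratio of FPKM within each library (vertical axis, no unit, starting at 0) for Isg15 to Usp18 and for Stat2 to Irf9; the dotted line marks equal FPKM. Isg15 to Usp18 lies between 1.02 and 2.82 in the HFD libraries and between 6.19 and 7.48 in the HTG libraries, and Stat2 to Irf9 between 1.77 and 2.19 and between 2.75 and 3.07.

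Of the 4 members that encode antiviral effectors, Rsad2 was lower and none was higher in the HTG libraries at an unadjusted p under 0.05 in edgeR. Of all genes tested, 12.3% were higher and 12.4% were lower, and 4 genes are too few to compare with these shares. Rsad2, which encodes viperin, an enzyme that makes a chain-terminating nucleotide (ENSMUSG00000020641, chromosome 12, 26492745 to 26506451), had 4.23, 4.30 and 3.19 CPM across the HFD group's libraries and 2.81, 2.25 and 2.01 CPM across those of the HTG group. The groups did not overlap, although HFD library 3 and HTG library 1 were close. The means were 3.91 ± 0.623 and 2.36 ± 0.412 CPM (SD, n = 3 per group), 1.66-fold lower in the HTG group. The log2 fold change was -0.73 (standard error 0.28, 95% interval -1.36 to -0.095, adjusted p = 0.153 in edgeR). Its unadjusted p was 0.0289 in edgeR, 0.0775 without HFD library 1, 0.0752 without HFD library 2, 0.0731 without HTG library 2 and 0.091 without HTG library 3. The summed level of 10 Kupffer cell and macrophage markers ran from 890.5 to 1554 CPM in the HFD libraries and 600.1 to 1039 CPM in the HTG libraries, and its part in the values of Usp18 and Rsad2 was not tested.

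The IFIT genes encode proteins that bind viral RNA or limit its translation, and they lie together on chromosome 19. Ifit1 (ENSMUSG00000034459, 34618271 to 34627409) had 4.33, 3.03 and 3.62 CPM across the HFD group's libraries and 3.41, 2.90 and 4.74 CPM across those of the HTG group. The fitted log2 difference was 0.01 (95% interval -0.66 to 0.67, adjusted p = 0.992 in edgeR) and was -0.02 with DESeq2's size factors. Ifit2 (ENSMUSG00000045932, 34528094 to 34553819) had 8.12, 4.33 and 7.11 CPM across the HFD group's libraries and 7.41, 4.79 and 3.93 CPM across those of the HTG group, a log2 fold change of -0.28 (95% interval -1.03 to 0.48, adjusted p = 0.639 in edgeR).

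Ifit3 (ENSMUSG00000074896, 34560931 to 34566131) had 15.5, 8.59 and 14.6 CPM across the HFD group's libraries and 14.9, 14.7 and 11.6 CPM across those of the HTG group. HFD library 2 was the lowest HFD library for all 3 of these genes, and leaving it out moved the log2 fold change of Ifit3 from 0.09 (95% interval -0.48 to 0.66) to -0.14. The 3 intervals include 0, and they do not show that the levels were equal. The span from Ifit2 to Ifit1 (34528094 to 34627409) holds 6 rows. Besides the members these are Ifit3b, a close relative of Ifit3, with 3.16 ± 1.52 CPM in the HFD group and 3.43 ± 0.393 CPM in the HTG group (SD, n = 3 per group), and Ifit1bl1 and Ifit1bl2, with at most 55 and 38 counts. Fragments that fit several of these related genes may have been divided among them, so the level of each is uncertain.

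The order of the members by length-scaled level was led by different genes in the groups. In the HFD group Irf7 was first with a mean of 16.6 ± 4.76 FPKM, followed by Stat2 (11.5 ± 1.79), Isg15 (8.63 ± 3.36), Ifit3 (7.22 ± 2.42), Irf9 (6.05 ± 0.891) and Usp18 (4.46 ± 0.655 FPKM; all SD, n = 3). The pairs Stat2 and Isg15, Isg15 and Ifit3, and Ifit3 and Irf9 overlapped in their libraries. In the HTG group Stat2 was first with a mean of 24.4 ± 0.852 FPKM, above Irf7 (17.5 ± 4.44) and Isg15 (17.2 ± 4.32), which overlapped, and then Irf9 (8.32 ± 0.757) and Ifit3 (7.41 ± 1.44 FPKM; all SD, n = 3), which also overlapped. At the low end in both groups were Ifit2, Ifit1 and Rsad2. Rsad2 was last, with 0.867 ± 0.127 FPKM in the HFD group and 0.507 ± 0.101 FPKM in the HTG group (SD, n = 3).

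**Figure D4:**
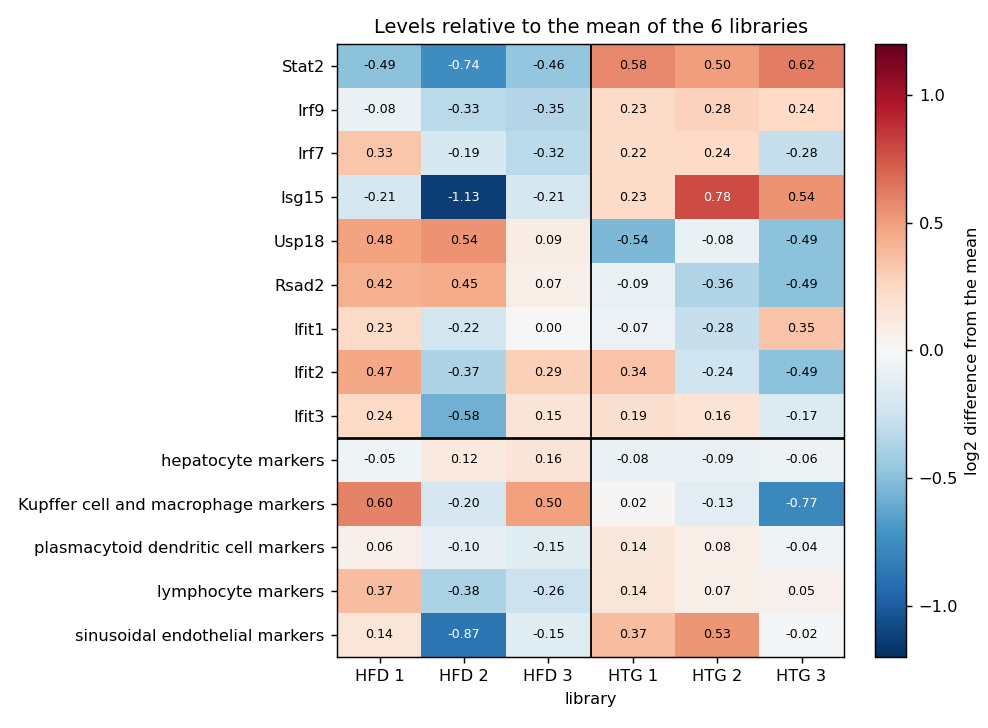
Level of each of the 9 genes and summed level of each marker list in each library (columns), as the log2 difference from the mean of the 6 libraries; red is higher, blue is lower, and the numbers give the difference. Stat2 is red in every HTG library and blue in every HFD library, Usp18 and Rsad2 show the reverse, and the Ifit genes differ as much within a group as between groups.

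Over the 6 libraries, the log2 levels of Stat2 and Irf9 ran together (Pearson's r = 0.95), as did those of Stat2 and Isg15 (0.89), whereas Stat2 ran against Usp18 (-0.92) and Rsad2 (-0.90). These values describe 6 libraries in 2 groups, so they include the difference between the groups. Ifit2 and Ifit3, whose groups overlap, had r = 0.73. The genes whose pattern was most like the mean of the 9 standardised members, among 14371 genes averaging 50 counts or more, were Ecscr (r = 0.99), Ceacam1 (0.98), Cby1 (0.98), B4galt6 (0.98) and Lpl (0.98). That mean pattern was highest in HFD library 1 and lowest in HFD library 2, and it averages members that went in opposite directions.

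Upstream of the members, the interferon genes themselves gave almost no counts. Of 20 type I and III interferon ligands looked for, 14 had a row, and none reached the expression filter. In 12 of them every library was at 0, and the highest value was 10 counts, in Ifnk, so all 14 were at or under the limit of 12 counts (3 fragments, 0.123 to 0.256 CPM) that an empty gene allows. Counts above 0 were listed for Ifnk and Ifnz alone, and no difference between the groups was detectable at this depth in the 14 ligands. The limit covers counting error only.

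The receptor and its kinases were measured at levels that overlapped between the groups. Ifnar1 had 32.1 ± 3.36 CPM in the HFD group and 34.3 ± 2.27 CPM in the HTG group, a log2 fold change of 0.10 (95% interval -0.26 to 0.46). For Ifnar2, Jak1 and Tyk2 the log2 fold changes were 0.21 (95% interval -0.31 to 0.74), -0.23 (-0.62 to 0.15) and 0.20 (-0.24 to 0.64). Of the 11 receptor and proximal signalling genes, 1 was higher and 1 was lower at an unadjusted p under 0.05 (18.2%, near the background of 24.7%). Socs3, a feedback inhibitor of JAK kinases that also answers to interleukin-6, had 33.2, 31.3 and 12.4 CPM across the HFD group's libraries and 53.1, 117 and 248 CPM across those of the HTG group, a log2 fold change of 2.44 (adjusted p = 0.0629 in edgeR). Ptpn11, which encodes the phosphatase SHP2, was the lower gene, with a log2 fold change of -0.90 (adjusted p = 0.0659 in edgeR). Without HTG library 1 or HTG library 2, 2 genes of this list were higher.

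The sensors and adaptors that detect nucleic acid and start interferon production were split. Of 17 tested, 3 were higher and 3 were lower at an unadjusted p under 0.05 (35.3% beside 24.7% of all genes), with a median log2 fold change of -0.06. The higher genes were the nucleic acid sensor Zbp1 (means of 10.2 and 20.4 CPM in the HFD and HTG groups), the transcription factor Irf3 (log2 fold change 0.61) and the RNA receptor Tlr3 (0.92, in which the groups overlapped). The lower genes were Tlr7, an RNA receptor of immune cells (-0.99), and the adaptors Ticam1 (-0.53) and Mavs (-0.50). Their adjusted p-values lay between 0.0718 and 0.17 in edgeR. Single libraries decided some of these calls: without HTG library 2 only 1 gene of the list was lower, since Ticam1 and Mavs passed no longer. Mavs also did not pass without HFD library 2, HFD library 3 or HTG library 3, and Tlr3 without HFD library 1, HFD library 2, HTG library 2 or HTG library 3.

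A wider list of 54 interferon-stimulated genes outside the 9 members was measured for 53. At an unadjusted p under 0.05, 12 were higher and 2 were lower, 26.4% of the list beside 24.7% of all genes, and the median log2 fold change was 0.18 beside 0.03. Fitted values were positive in 38 of the 53 genes, where 51.6% of all genes tested were positive, and the groups did not overlap in 18, where 32.1% of all genes had groups that did not overlap. The 3 higher genes with the smallest p were Mx2, Oas2 and Ifi35. Mx2, an antiviral GTPase, had 11.2, 6.63 and 6.91 CPM across the HFD group's libraries and 15.4, 21.6 and 24.9 CPM across those of the HTG group (log2 fold change 1.32, adjusted p = 0.0584 in edgeR). Oas2, a 2′-5′-oligoadenylate synthetase, had a log2 fold change of 1.04 (adjusted p = 0.0613 in edgeR), and Ifi35 had one of 0.56 (adjusted p = 0.0998). The lower genes were Lgals3bp (-0.95), a secreted glycoprotein, and Dtx3l (-0.49), a ubiquitin ligase. The count of higher genes was 7 without HTG library 2, 8 without HFD library 2 and 16 without HFD library 1. The count of lower genes was 5 without HFD library 2 and 4 without HFD library 3 or HTG library 1. No gene of the list had an adjusted p under 0.05 in edgeR; DESeq2 put 7 under it.

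Genes of the related interferon gamma response went in both directions. Of 24 tested, 3 were higher and 1 was lower at an unadjusted p under 0.05, which is 16.7% beside 24.7% of all genes, a difference that was not tested. The higher genes were Gbp4, a guanylate-binding protein (means of 3.87 and 7.74 CPM in the HFD and HTG groups), the T cell chemokine Cxcl11 (log2 fold change 1.43) and the transcription factor Irf1 (0.52), and the lower gene was the receptor subunit Ifngr2 (-0.77). The median log2 fold change was 0.17, and the adjusted p-values of these 4 genes lay between 0.0734 and 0.159 in edgeR. Without HTG library 1, 4 genes of the list were lower, and without HFD library 2, 2 were. Irf1 passed no longer (unadjusted p over 0.05 in edgeR) without HFD library 2, HFD library 3, HTG library 1 or HTG library 2.

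**Figure D5:**
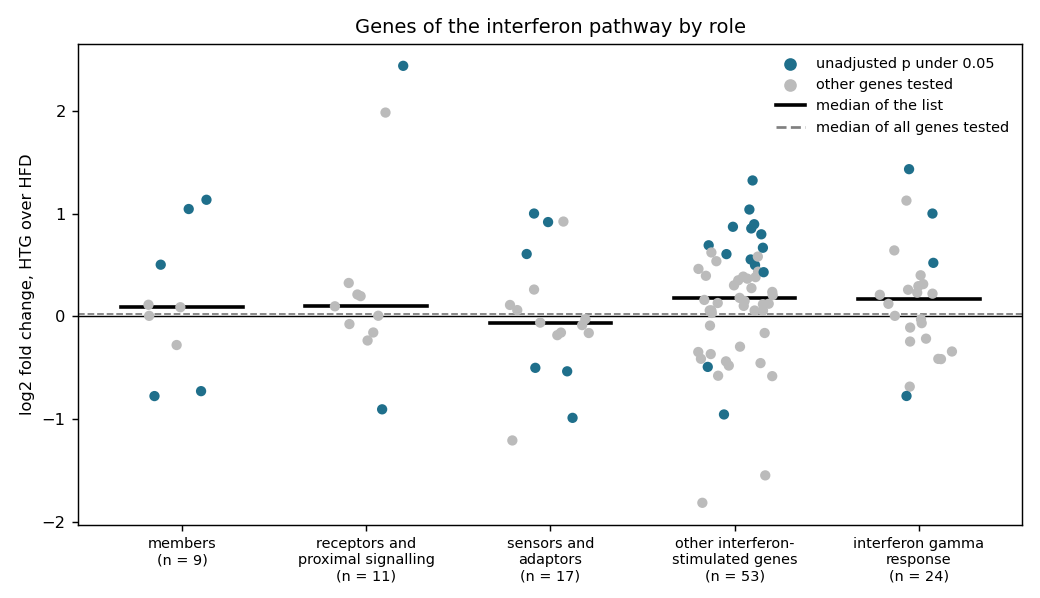
Log2 fold change, HTG over HFD, of each tested gene (points; coloured at an unadjusted p under 0.05, grey otherwise) of the 9 members, the receptor and proximal signalling list, the sensors and adaptors, the other interferon-stimulated genes and the interferon gamma response genes, with the median of each list as a thick line and that of all genes tested as a dashed line. The medians lie between -0.06 and 0.18, and each list has genes on both sides of 0.

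The tissue label was checked against 8 hepatocyte markers, which summed to between 90730 and 104600 CPM in the HFD libraries and between 88220 and 89790 CPM in the HTG libraries, with none at 0. Of these, 1 was higher at an unadjusted p under 0.05 (Apoa1) and 3 were lower (Cps1, Apob and Tat), where 24.7% of all genes passed in either direction. Some markers of Kupffer cells and macrophages were lower in the HTG libraries. Of 10 such markers 3 were lower (Adgre1, Lyz2 and Cd5l) and 0 were higher at an unadjusted p under 0.05 (30.0% beside 24.7% of all genes), with a median log2 fold change of -0.44. Their summed level was 1554, 890.5 and 1446 CPM in HFD libraries 1, 2 and 3. It was 1039, 935.0 and 600.1 CPM in HTG libraries 1, 2 and 3, so HFD library 2 lay within the HTG range. Within the HFD group, Usp18 (14.5 CPM) and Rsad2 (4.30 CPM) were highest in HFD library 2, where the marker sum was lowest. In HTG libraries 1, 2 and 3, Rsad2 had 2.81, 2.25 and 2.01 CPM, in the same order as the marker sum. Usp18 had 6.60, 9.28 and 6.83 CPM there and was highest in HTG library 2. The part of these markers in either gene was not tested. The count of lower markers was 1 without HFD library 1 or HTG library 3 and 5 without HFD library 2. None of the 10 markers was at 0 in every library. Clec4f, a marker of Kupffer cells in the mouse, had 194 ± 57.0 CPM in the HFD group and 183 ± 53.2 CPM in the HTG group (SD, n = 3 per group).

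Endothelial markers were lowest in HFD library 2. Within the HFD group, the summed macrophage (890.5 CPM) and lymphocyte (7.86 CPM) markers were lowest in that library too. Stat2, Isg15 and the Ifit genes were lowest in HFD library 2 within their group, whereas Irf7, Irf9, Usp18 and Rsad2 were lowest in HFD library 3. The 6 sinusoidal endothelial markers summed to between 74.3 and 150.1 CPM in the HFD libraries and between 134 and 197.0 CPM in the HTG libraries, and 1 of them (Stab1, log2 fold change 0.74) was higher at an unadjusted p under 0.05. With HFD library 1 or HTG library 3 left out, 2 were higher, and with HFD library 2 left out, 1 was lower. The 6 plasmacytoid dendritic cell markers summed to between 127 and 147 CPM in the HFD libraries and between 137 and 155 CPM in the HTG libraries. Most of that sum was Bst2, which is also an interferon-stimulated gene of the wider list and had means of 122 and 131 CPM. The 10 lymphocyte markers summed to between 7.86 and 13.3 CPM and between 10.6 and 11.3 CPM. Log2 fold changes were positive in 5 of the 6 plasmacytoid dendritic cell markers (median 0.65) and in 7 of the 9 lymphocyte markers tested (median 0.08). Neither list had a gene with an unadjusted p under 0.05. However, 1 lymphocyte marker was lower without HTG library 2. Of the plasmacytoid dendritic cell markers, 2 were higher without HFD library 1 and 1 with at least 10 counts in every library. The part of any of these cell types in the members' values was not tested.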

How the data were processed

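Liver RNA of 3 HFD and 3 HTG libraries was analysed, grouped by the sample titles. The authors deposited a whole-number estimated count and an FPKM value for each gene and library; the submitters' processing notes name HISAT2, StringTie, SAMtools and the assembly mRatBN7.2, although the rows carry mouse Ensembl identifiers. The FPKM values were scaled by the authors for transcript length and library size, and the estimated counts were not normalised. Coordinates are as the authors' table lists them, whose build is not named there. Use of strand in counting is not given in the sources used here.

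Library totals ran from 50648778 to 90563477 counts. Low counts came mostly in steps of 4 (the value 4 occurred 6450 times, 3 occurred 2549 times and 5 occurred 1757 times), so the depth was read as 12662194 to 22640869 fragments, and the limit of an empty gene as 3 fragments.

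Counts were tested with edgeR 4.0.16 in R 4.3.3 (TMM scaling, filterByExpr, glmQLFit and glmQLFTest, group as the only term), with Benjamini-Hochberg adjustment over the 18455 genes tested. With 3 libraries against 3, an exact permutation test cannot go below p = 0.1. Nothing beyond the series text says that libraries came from separate animals. Each p-value therefore sets the group difference against the spread between these libraries. On simulated counts, 186 of the 17801 genes tested were changed, each by an absolute log2 fold change of 1 or more. Of these, 135 (72.6%) had an unadjusted p under 0.05 in the right direction, and 20 had an adjusted p under 0.05. Of unchanged genes, 4.62% had an unadjusted p under 0.05. These shares do not measure how often smaller differences, such as those of Irf9, Usp18 and Rsad2, would be called.

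The members and lists were chosen with earlier results of these data known. Named genes were all members, the 3 genes with the smallest unadjusted p under 0.05 in each direction of each pathway list, Ifnar1, Ifnar2, Jak1 and Tyk2, the ligands with counts, and the 5 genes most like the members; Clec4f, Bst2, Ifit3b, Ifit1bl1, Ifit1bl2 and the overlapping genes were named after their values were seen. A gene that the rule also names is not reported here. Ifih1 stood on both the sensor list and the list of other interferon-stimulated genes. Alternatives were DESeq2 1.42.0, its size factors, upper-quartile scaling, no filter, a minimum of 10 counts per library, counts divided by 4, a replicate block, leaving out single libraries, and limma 3.58.1 on log2(FPKM + 0.1) and log2(FPKM + 1) for genes with a mean of at least 1 FPKM.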

Additional observations from a re-analysis of the deposited data

How the results depend on the processing

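The number of members higher at an unadjusted p under 0.05 was 3 in all 15 alternative fits. The number lower was 1 in limma on log2(FPKM + 0.1) and on log2(FPKM + 1), where Rsad2 fell under the minimum mean FPKM, and ran from 1 to 2 when each library was left out in turn. The number at an adjusted p under 0.05, 0 in edgeR, was 3 in DESeq2 and 1 with no filter, with at least 10 counts in every library, in both limma fits and with counts divided by 4, and ran from 0 to 1 when each library was left out (1 without HTG library 1). The cause of these differences was not tested. The median log2 fold change ran from -0.12 to 0.24 when each library was left out. Ifit1 turned negative in DESeq2 (-0.022), with DESeq2's size factors (-0.02), with no filter (-0.006), with the block (-0.007) and in limma (-0.046 and -0.03), and ran from -0.21 to 0.15 when each library was left out; Ifit3 ran from -0.14 to 0.24 and Irf7 from -0.017 to 0.34. Adjusted p-values over the alternatives ran from 0.0607 to 0.267 for Irf9, 0.0198 to 0.276 for Isg15, 0.0214 to 0.238 for Usp18 and 0.0769 to 0.35 for Rsad2.

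The correlations of same-numbered deviations from the group means were -0.13, -0.11 and 0.19, and those of differently numbered libraries ran from -0.19 to 0.29. With 3 libraries in each group, these values cannot decide whether the replicate numbers pair the libraries. With the replicate block, 3 members were higher, 2 were lower and 0 had an adjusted p under 0.05. The 3 libraries in each group limit every comparison.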

Other observations

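The authors' table annotates the members with gene ontology terms, and the terms below were chosen after the values were seen. Defense response to virus held 6 of the 9 members and 166 other genes that were tested. Of these others 21 were higher and 20 were lower at an unadjusted p under 0.05 (edgeR's quasi-likelihood test), 24.7%, which is the share of all genes tested, and their median log2 fold change was 0.03. Innate immune response held 4 members, and among its 398 other genes 38 had higher and 50 had lower levels (22.1%), with a median of -0.03.

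Cellular response to interferon-beta held 2 members, and 8 of its 48 others were higher and 2 lower (20.8%, median 0.14). Cellular response to interferon-alpha held Ifit1, Ifit2 and Ifit3, and 0 of its 14 others were higher and 1 lower (7.14%). Negative regulation of type I interferon signalling held Stat2, Isg15 and Usp18, of which Usp18 alone was lower. Of its 17 others, 4 were higher and 1 lower (29.4%). These shares stand beside 24.7% of all genes tested, and the differences were not tested.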
